A study of Mus musculus with 7 samples.

Results

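BCL2 family survival and death genes were followed here as 10 genes: Bcl2, Bcl2l1, Mcl1, Bax, Bak1, Bid, Bad, Bcl2l11, Bbc3 and Pmaip1. A probe set, the group of short probes that together report 1 transcript, was a member when the platform annotation gave it 1 of these symbols and no other symbol. This took 24 of the 22690 probe sets on the array and covered 9 of the 10 genes, among 12393 genes with such a probe set. No probe set carried the symbol Bax in the annotation used, so Bax has no value here. The arrays measured RNA of LSK cells, the bone marrow cells without mature lineage markers and with Sca-1 and c-Kit on their surface, a gate that contains the blood stem cells and their earliest descendants. The 4 Lkb1 KO samples (numbers 4 to 7) came from Lkb1 L/L, rosa26CreERT2 mice, in which tamoxifen activates a Cre recombinase expressed from the Rosa26 locus that deletes the floxed Lkb1 gene. The 3 Lkb1 WT samples (numbers 5 to 7) came from Lkb1 L/L mice, which carried the floxed gene and no Cre, so Cre was present in the KO group alone. Both groups were adult mice of the C57BL/Ka-CD45.2:Thy-1.1 strain, received tamoxifen for 5 days, and had LSK cells of the femoral and tibial marrow sorted 1 day after the last injection, 15000 to 20000 cells per sample. The Rosa26 locus is active in most tissues, so the deletion was not limited to blood cells. Whether each sample was 1 animal is not stated in the labels, and the tests therefore rest on a spread between samples that can be technical.

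The BCL2 family decides whether the outer membrane of the mitochondrion stays intact or is opened to release cytochrome c, which starts the caspase cascade of apoptosis. Survival members (BCL2, BCL-XL and MCL1) hold the pore-forming effectors BAX and BAK in check, and BH3-only members (BID, BAD, BIM, PUMA and NOXA) carry death signals by binding survival members, some of them also by activating the effectors. In haematopoietic stem and progenitor cells MCL1 is known to be needed for survival, and cytokine signals through c-KIT and STAT5 are known to raise survival members. LKB1, the product of Stk11, is the kinase upstream of AMPK and related kinases that adjust metabolism to the energy state of the cell.

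None of the 7 members that could be tested passed the test between KO and WT. The test was limma on log2(signal + 16) after quantile normalization, with Benjamini-Hochberg adjustment over 8077 genes at a threshold of 0.05. Across all genes tested 5.36% passed it, 2.45% higher and 2.91% lower in KO. The members nearest to the threshold were Bcl2l1, the gene of BCL-XL, at a lower signal in KO, and Bid, the gene of a BH3-only protein, at a higher signal in KO. For both, no KO array overlapped a WT array after normalization. These were 2 of 7 members without overlap (28.6%), where 24.2% of all genes tested had none, and 2 of 7 members (28.6%) had an unadjusted p under 0.05, where 25.4% of all genes did. Both shares lie near the background. The median difference of the 7 members was 0.01 on the log2 scale, KO minus WT, and that of all genes tested was -0.02. In simulated data with the same numbers of arrays, 100 of 8077 genes were changed by 1 log2 unit and 100 by 0.5 log2 units. Of these 77 and 28 were recovered. In the data 433 genes passed, and with more genes past the threshold the adjustment is less strict. The simulated shares are therefore not the power of the test here, and differences of the size seen here can still be missed.

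**Figure D1:**
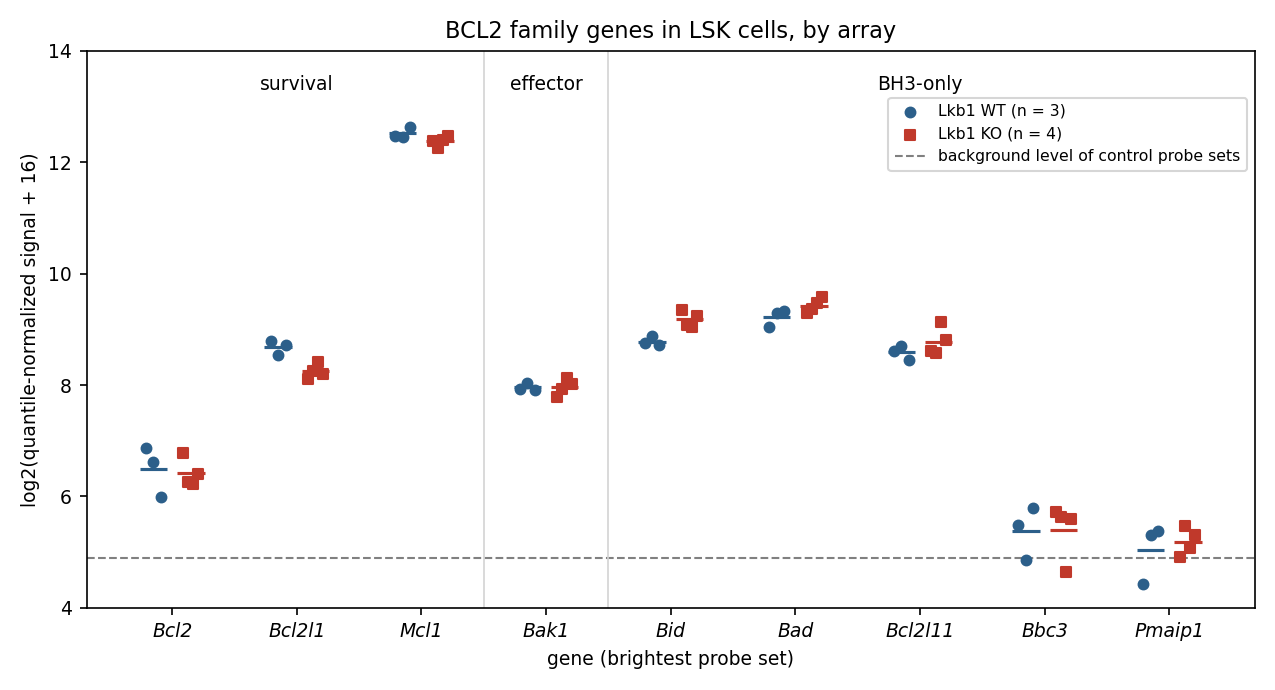
Signal of each measured member on each array, as log2(quantile-normalized signal + 16) of the brightest probe set, with Lkb1 WT as circles (n = 3), Lkb1 KO as squares (n = 4) and group means as bars. KO and WT do not overlap for Bcl2l1 and Bid, overlap for the other members, and Bbc3 and Pmaip1 lie near the dashed background level. That level was taken from deposited signals, before normalization. Heights of different genes are not comparable, since each probe set has its own brightness.

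Several technical and cellular values moved with genotype and stand beside every result that follows. Each KO array was brighter as deposited than each WT array (trimmed mean 360.4 to 425.9 in KO and 228.6 to 340.5 in WT), which moved the median gene by 0.34 log2 units before normalization. The Actb control probe sets at the 3' and 5' ends of the message gave a signal ratio, higher where amplified RNA is shorter, between 11.41 and 12.29 on KO arrays and between 12.6 and 13.11 on WT arrays, without overlap. All 5 LSK markers with a probe set were above background on every array, with a summed normalized signal of 9613 to 10336 on KO arrays and of 11744 to 12794 on WT arrays. All 10 mature granulocyte and monocyte markers were also above background, with a summed signal of 11948 to 17107 in KO and 28930 to 38789 in WT. Of these 8 fell in KO, all but Itgam and Csf1r, which were at 0.40 and 0.75 without overlap and without passing (limma adjusted p = 0.0662 and 0.0846). Erythroid markers, 6 of 7 above background on all arrays, summed to 2666 to 3653 in KO and 3937 to 5468 in WT. There Ermap fell (-1.22, adjusted p = 0.0230) and Hba-a2 rose (0.43, adjusted p = 0.0332), the only 1 of the 6 tested above 0. Car1, Car2, Klf1 and Epor were at -1.05, -0.55, -0.46 and -0.23 without passing (limma adjusted p 0.0617 to 0.138). Stroma and endothelium markers summed to 233.2 to 329.4 in KO and 399.5 to 593.9 in WT, with 1 of 5 above background on all arrays, Col1a1 on none, and a fall of Col1a2 (-0.95, adjusted p = 0.0446). Megakaryocyte markers, all 5 above background, summed to 1247 to 1622 in KO and 1582 to 1933 in WT, and none passed. Of 6 B cell markers 3 were above background on all arrays, Cd79a and Pax5 on none, and the sums overlapped (593.2 to 750.2 in KO and 612.6 to 813.8 in WT). Of 6 T and NK cell markers none was above background on all arrays, Cd3e and Cd3g on no array, and the sums overlapped (59.4 to 89.4 in KO and 47.0 to 88.3 in WT). The part of these cell differences in the members' values was not tested, and in bulk RNA fewer cells of a type cannot be told apart from less RNA per cell. Stk11 itself was lower by 0.56 ± 0.19 (SE) in KO without passing the test (limma adjusted p = 0.118), with overlapping arrays. Its second, dim probe set pointed the other way at 0.71 ± 0.42 (SE; limma adjusted p = 0.473), with deposited signals from 5.9 to 57.9 in KO and from 3.4 to 19.4 in WT, too near the background to read. The sources used here do not place its probes inside or outside the deleted exons, so this value does not check the labels.

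Bcl2l1 encodes BCL-XL, a survival protein of the mitochondrial outer membrane, and its shorter splice form is known to promote death. Its 1 bright probe set gave normalized signals of 260.6, 288.2, 325.1 and 277.1 in KO 4 to KO 7 and of 426.7, 355.0 and 407.1 in WT 5 to WT 7. Every KO array was below every WT array, and the nearest pair was KO 6 and WT 6. The difference was -0.44 ± 0.11 (SE) on the log2 scale, a KO level of 0.737 times the WT level (limma 95% interval -0.69 to -0.19, adjusted p = 0.0561). As deposited, without scaling between arrays, the signals overlapped, at 328.7, 326.1, 336.3 and 288.3 in KO and 424.4, 313.6 and 266.4 in WT, and the difference was -0.04. The lower level in KO is therefore a statement relative to the other genes on each array. With a pseudocount of 64, a filter at the 60th percentile or a trended robust prior the gene passed the test (limma adjusted p = 0.0394, 0.0307 and 0.0338), and in each of the 7 fits without 1 array it did not (adjusted p 0.0644 to 0.128). The other 3 probe sets of Bcl2l1 could not be read, since 1 of them was above background on 4 of the 7 arrays and the other 2 on none. The splice forms were therefore not compared.

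Bid encodes the BH3-only protein that caspase-8 cleaves to carry the death receptor signal to the mitochondrion. Its bright probe set gave normalized signals of 633.6, 525.3, 512.5 and 589.6 in KO 4 to KO 7 and of 413.6, 455.4 and 403.7 in WT 5 to WT 7. The 4 KO arrays were all above the 3 WT arrays, and the gap between KO 6 and WT 6 was the narrowest. The difference was 0.40 ± 0.11 (SE) on the log2 scale, a KO level of 1.32 times the WT level (limma 95% interval 0.16 to 0.64, adjusted p = 0.0650). The arrays did not overlap as deposited either, at 791.6, 605.4, 538.3 and 612.8 in KO and 410.9, 404.6 and 264.5 in WT. On that scale the difference was 0.81 (limma adjusted p = 0.0160), where the median gene differed by 0.34. Bid passed the test in 5 of 13 alternative settings and in none of the 7 fits without 1 array (adjusted p 0.0851 to 0.148). A second Bid probe set was above background on 1 KO array and on no WT array and gives no fold.

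Bid and Bcl2l1 ran in opposite order among the KO arrays. There the normalized Bid signal was highest in KO 4, then KO 7, KO 5 and KO 6, and Bcl2l1 was lowest in KO 4, then KO 7, KO 5 and KO 6. Among the WT arrays WT 6 had the highest Bid and the lowest Bcl2l1, while WT 5 was above WT 7 for both genes. The Actb 3' to 5' ratio followed the KO order: it was 11.41 in KO 4, 11.59 in KO 7, 12.1 in KO 5 and 12.29 in KO 6. It then went on to 12.6 in WT 6, 12.93 in WT 7 and 13.11 in WT 5, so that all 7 arrays had the same order by this ratio as by Bcl2l1. With the ratio as a covariate the difference was -0.11 for Bcl2l1 and 0.07 for Bid (limma adjusted p = 0.896 and 0.944), and of all genes tested 1 passed. The ratio and genotype do not overlap, so their shares in these differences cannot be told apart. By Pearson r over the 7 arrays, a description that includes the difference between groups, the genes most like Bcl2l1 were Sgk1 (0.9944), Arid2 (0.9916) and Mettl7a1 (0.9826). Those most like Bid were Recql4 (0.9891), Nup50 (0.9823) and Eif5a (0.9823).

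**Figure D2:**
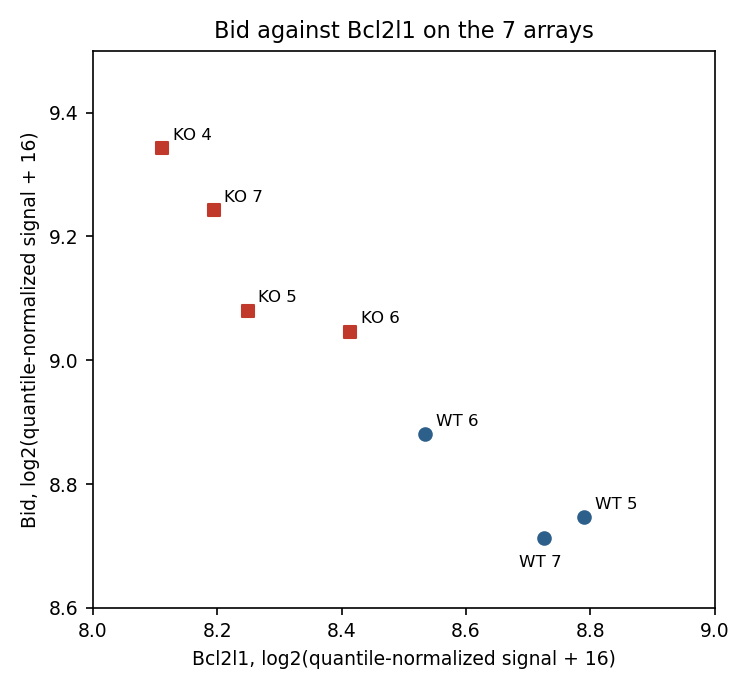
Bid (vertical axis) against Bcl2l1 (horizontal axis) on each array, both as log2(quantile-normalized signal + 16), with Lkb1 KO as squares and Lkb1 WT as circles labelled by sample number. The points run from KO 4, which had the highest Bid and the lowest Bcl2l1, to WT 5 and WT 7, and the Actb 3' to 5' ratio ran from 11.41 in KO 4 to 13.11 in WT 5.

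The sequences before the start sites of 3 of these genes are shown as a description: Bid and Bcl2l1, the members nearest to the threshold, and Bcl2l11. They are the 250 bases upstream of a RefSeq transcript start in GRCm38.p6, 5' to 3' on the strand of the gene. Capitals mark any match on either strand to GGGCGG (the core of an SP1 site), TGTTTAC (FOXO), TTCNNNGAA (STAT), TGACGTCA (CRE) or the p53 half-site. Bid lies at chr6:120916825-120917074 on the minus strand. The outermost of the 3 Bcl2l1 windows lies at chr2:152831729-152831978 on the minus strand, and the upstream window of Bcl2l11 at chr2:128125788-128126037 on the plus strand.
Bid: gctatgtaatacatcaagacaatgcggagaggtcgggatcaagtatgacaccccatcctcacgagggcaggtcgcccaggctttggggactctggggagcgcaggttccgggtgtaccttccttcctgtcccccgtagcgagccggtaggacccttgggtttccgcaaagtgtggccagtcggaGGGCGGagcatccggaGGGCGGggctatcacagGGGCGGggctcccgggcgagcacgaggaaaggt
Bcl2l1: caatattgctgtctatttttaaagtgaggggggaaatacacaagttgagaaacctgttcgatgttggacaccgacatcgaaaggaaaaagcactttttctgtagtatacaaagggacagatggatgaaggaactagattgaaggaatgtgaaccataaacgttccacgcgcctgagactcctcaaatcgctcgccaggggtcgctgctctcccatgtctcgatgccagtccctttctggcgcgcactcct
Bcl2l11: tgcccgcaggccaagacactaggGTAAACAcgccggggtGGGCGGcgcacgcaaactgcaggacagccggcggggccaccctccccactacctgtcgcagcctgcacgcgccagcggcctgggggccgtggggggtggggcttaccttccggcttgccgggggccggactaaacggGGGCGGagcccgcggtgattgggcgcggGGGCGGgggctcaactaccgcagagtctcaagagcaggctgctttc

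The Bid window was 63.6% G and C and held 3 matches to GGGCGG. At least 1 match was found in 32.7% of the 32851 mouse windows of this length, and how many held 3 was not counted. The motif consists of G and C only, and this share was not matched for G and C. The Bcl2l1 window was 47.6% G and C and held no match to any of the 5 motifs, and the other Bcl2l1 windows had 48.4% and 53.2%. The median over all windows was 52.4%. Bcl2 and Mcl1, which lay below the median gene as Bcl2l1 did, had windows of 74.8% and 64.4% G and C. These held 7 and 1 matches to GGGCGG. A link between window composition and direction was not tested. The Bcl2l11 window held 3 matches to GGGCGG and 1 to TGTTTAC, which starts 227 bases before the transcript start and is found in 3.17% of all windows. Among the 15 windows of 9 members, the only other TGTTTAC match was in a window of Bbc3 at chr7:16310011-16310260. These 9 members are not the 9 with a probe set: they include Bax and leave out Pmaip1, for which no window was used. Thus 2 of 15 windows, from 2 of 9 members, had one. The share over all windows counts single windows, so it is no background for a count of members. TTCNNNGAA was present in 7.02% of all windows, TGACGTCA in 1.55% and the p53 half-site in 7.13%. A match describes letters and not a bound site.

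Mcl1 encodes a survival protein with a short half-life. Its brightest probe set gave normalized signals of 5310, 4878, 5395 and 5621 in KO 4 to KO 7 and of 5653, 5606 and 6364 in WT 5 to WT 7. KO 7 lay just above WT 6, so the groups overlapped. The difference was -0.15 ± 0.09 (SE) on the log2 scale (limma 95% interval -0.36 to 0.07, adjusted p = 0.368), and without WT 7 it was -0.09. The interval leaves room for a KO level lower by 0.36 log2 units and for almost no rise. As deposited the difference was 0.20, below the 0.34 of the median gene.

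The 6 probe sets of Mcl1 did not give 1 direction. The 3 with the suffix x_at, whose probes can also match other transcripts, gave -0.15, -0.12 and -0.23 on the log2 scale and followed each other across the 7 arrays (Pearson r 0.865 to 0.943, as a description). The probe set 1448503_at gave 1033, 1086, 1144 and 1138 in KO and 1300, 1272 and 1191 in WT, with every KO array below every WT array. Its difference of -0.19 ± 0.09 (SE) did not pass the test over all probe sets (limma adjusted p = 0.385). The probe sets 1416880_at and 1416881_at pointed the other way, at 0.13 ± 0.17 and 0.13 ± 0.18 (SE; limma adjusted p = 0.759 and 0.782). For 1416880_at the signals were 557.8, 485.2, 533.8 and 578.7 in KO and 443.8, 410.1 and 644.5 in WT. WT 7 alone was above all KO arrays and the other WT arrays were below all of them, and without WT 7 the difference was 0.32. As deposited all 6 were above 0 (0.16 to 0.55), where the median gene was at 0.34, and the mean of the 6 after normalization gave -0.07. The files do not say which transcript forms or which ends of the message these probe sets report.

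Bcl2 encodes the founding survival member and had 1 probe set. Its normalized signals were 94.3, 60.7, 59.0 and 68.1 in KO 4 to KO 7 and 101.0, 82.7 and 47.9 in WT 5 to WT 7. WT 5 and KO 4 were the highest and WT 7 the lowest, so the spread within each group was wider than the gap between the means. The difference was -0.08 ± 0.22 (SE) on the log2 scale (limma 95% interval -0.59 to 0.43, adjusted p = 0.854). This interval still holds a KO level lower or higher by 0.4 log2 units. The sign turned when WT 5 was left out, at 0.11, and as deposited, at 0.19, and without WT 7 the difference was -0.33.

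Bak1 encodes BAK, the effector that sits in the outer membrane and forms pores once activated. Its brightest probe set gave normalized signals of 205.1, 226.2, 262.2 and 243.7 in KO 4 to KO 7 and of 227.5, 245.9 and 224.2 in WT 5 to WT 7. The WT arrays lay inside the range of the KO arrays. The difference was 0.01 ± 0.10 (SE) on the log2 scale (limma 95% interval -0.23 to 0.24, adjusted p = 0.979), and it crossed 0 in 5 alternative fits. A second, dim probe set gave 0.28 ± 0.27 (SE; limma adjusted p = 0.672), with a mean signal of 30.5, just under the filter of 32.21. The other effector, Bax, had no probe set and so has no signal here.

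Bad encodes a BH3-only protein that growth factor kinases hold inactive by phosphorylation. Its brighter probe set gave normalized signals of 607.5, 647.3, 691.5 and 749.6 in KO 4 to KO 7 and of 510.9, 614.5 and 628.2 in WT 5 to WT 7. KO 4 was below both WT 6 and WT 7, so the groups overlapped. The difference was 0.20 ± 0.11 (SE) on the log2 scale (limma 95% interval -0.06 to 0.46, adjusted p = 0.308), and without WT 5 it was 0.11. As deposited, all KO arrays (726.7 to 776.2) were above all WT arrays (403.3 to 543.4) and the difference of 0.63 passed the test (limma adjusted p = 0.0365). The second probe set of Bad gave 0.23 ± 0.16 (SE; limma adjusted p = 0.557).

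Bcl2l11 encodes BIM, a BH3-only protein that rises in blood cells when cytokines are withdrawn. The brightest of its 5 probe sets gave normalized signals of 373.3, 365.2, 541.7 and 430.6 in KO 4 to KO 7 and of 376.2, 401.4 and 331.8 in WT 5 to WT 7. KO 6 stood highest, KO 7 was above all WT arrays, and KO 4 and KO 5 lay within the WT range. The difference was 0.19 ± 0.15 (SE) on the log2 scale (limma 95% interval -0.15 to 0.53, adjusted p = 0.461), and without KO 6 it was 0.07. A dimmer probe set, 1435449_at, gave 46.9, 61.7, 69.1 and 71.3 in KO and 46.2, 39.7 and 37.5 in WT. There every KO array was above every WT array, although KO 4 exceeded WT 5 by less than 1 signal unit. Its difference was 0.45 ± 0.14 (SE; limma unadjusted p = 0.0141, adjusted p = 0.186 over all probe sets). A further bright probe set, 1456005_a_at, gave 162.7, 264.1, 420.9 and 402.1 in KO and 264.2, 339.1 and 211.9 in WT. It had the lowest array and the highest array both in KO, and a difference of 0.13 ± 0.33 (SE; limma adjusted p = 0.896). The remaining 2 probe sets were above background on 4 and 3 of the 7 arrays and give no fold.

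Bbc3 and Pmaip1 encode PUMA and NOXA, the BH3-only proteins best known as targets of p53. Each had 1 probe set, and both lay below the filter on signal. The normalized signals of Bbc3 were 37.0, 33.3, 9.0 and 32.2 in KO and 28.8, 12.9 and 39.5 in WT. Its deposited signal was above the background level of 13.64 signal units on 3 KO and 2 WT arrays, so no direction can be read (difference 0.02 ± 0.32, SE; limma adjusted p = 0.985). Pmaip1 gave 13.9, 28.3, 17.8 and 23.7 in KO and 5.4, 23.7 and 25.7 in WT. Its deposited signal was above background on 4 KO and 2 WT arrays, and the difference after normalization was 0.15 ± 0.26 (SE; limma adjusted p = 0.830). At these signals a difference between KO and WT was not detectable.

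Read by probe set, 16 of the 24 were above background on all 7 arrays and 15 passed the filter. None passed the test over all 22626 non-control probe sets (limma), where 0.296% did. An unadjusted p under 0.05 was seen for 3 of the 24, against 16.1% of all probe sets. In 5 of the 24 (20.8%) KO and WT did not overlap, 3 higher and 2 lower in KO, against 16.2% of all probe sets. The 3 were 1 probe set each of Bid and Bcl2l11 and the dim one of Bid, and the 2 were 1 each of Bcl2l1 and Mcl1.

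**Figure D3:**
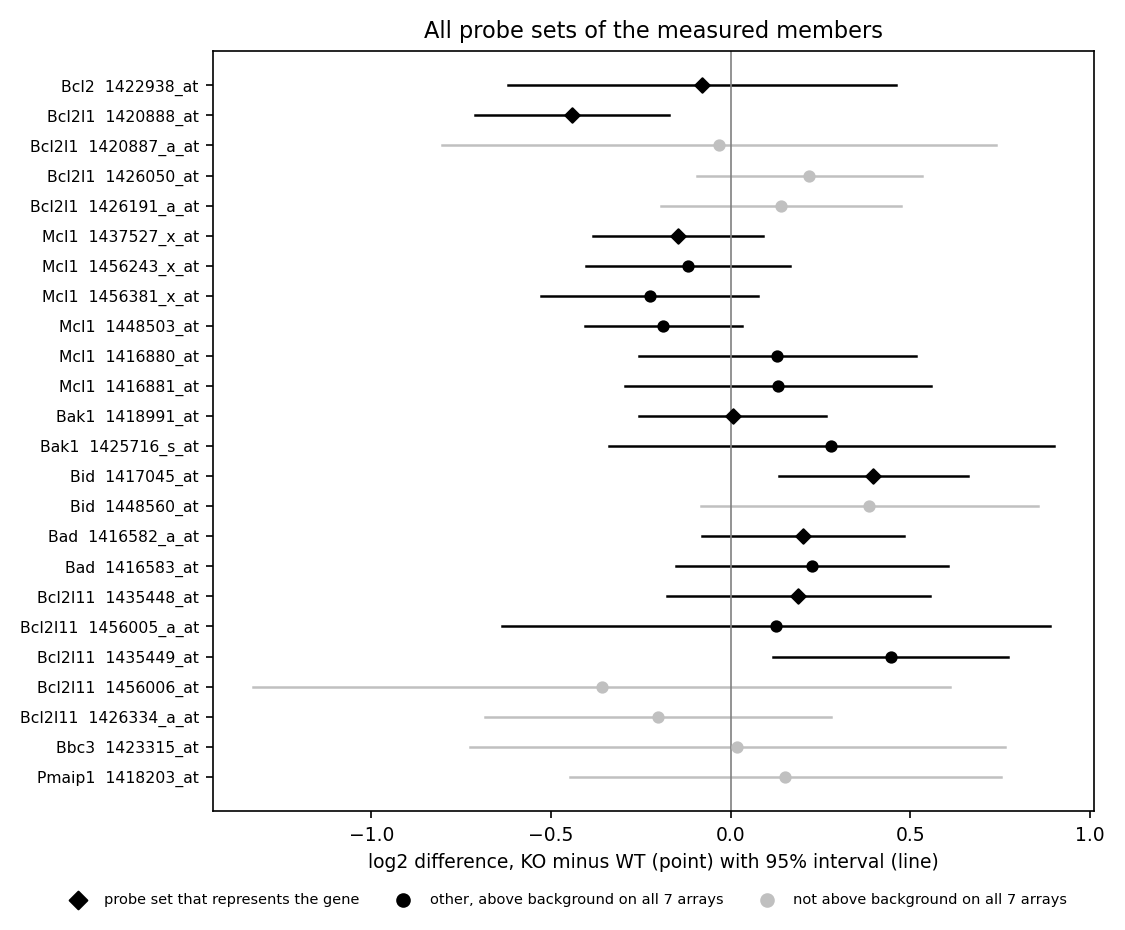
Difference of log2(quantile-normalized signal + 16), KO minus WT, for each of the 24 probe sets (point) with its 95% interval from limma over all probe sets (line). Diamonds are the probe sets that represent a gene, black circles are others above background on all 7 arrays, and grey ones were not above background on all 7 and give no fold. The intervals leave out 0 for 1 probe set each of Bcl2l1, Bid and Bcl2l11.

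Read by role, the 3 survival members tested (Bcl2l1, Mcl1 and Bcl2) lay below the median gene and the 3 BH3-only members tested (Bid, Bad and Bcl2l11) lay above it, with Bak1 between them at 0.01. None of these differences passed the test, so the split describes these 7 arrays. Whether it extends to relatives outside the 10 members was not tested. There Hrk, also a BH3-only gene, was at -0.60 with overlapping arrays, and Bnip3 at -0.32 without overlap (limma adjusted p = 0.263 and 0.157). Hrk was dim, at deposited signals of 11.3 to 54.6 in KO and 32.0 to 50.9 in WT. Its KO 6 signal was under the background of 13.64, so no direction is read from it. Of the 6 other BCL2 family genes tested, 3 were above 0. The BH3-only members kept their side under every setting tried. The survival members kept it except without WT 5, where Bcl2 was at 0.11, and with the filter at the 60th percentile Bcl2 was not tested. Against 0 rather than the median gene, 1 of the 3 survival members was below as deposited, where Bcl2 was at 0.19 and Mcl1 at 0.20.

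**Figure D4:**
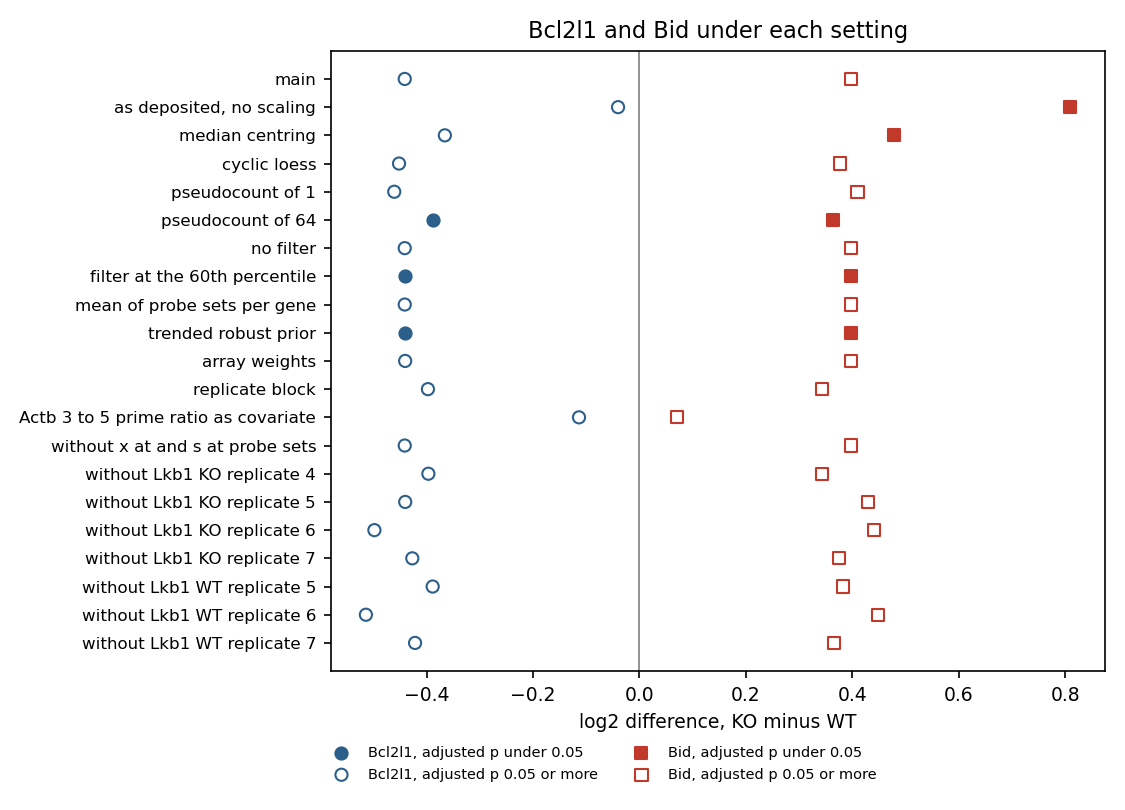
Difference KO minus WT on the log2(signal + pseudocount) scale for Bcl2l1 (circles) and Bid (squares) under the setting reported in the text (main), the 13 alternative settings and the 7 fits without 1 array. Filled symbols passed the test (limma adjusted p under 0.05). Bcl2l1 stayed at or below -0.04 and Bid at or above 0.07. Bcl2l1 came closest to 0 as deposited, where Bid lay farthest from 0, and Bid came closest with the Actb ratio as a covariate.

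The genes around the members were read from 10 lists with 104 genes tested, of which 2 rose and 3 fell in KO, 4.81% against 5.36% of all genes tested. This share lies near the background. Among the other BCL2 family genes 6 of 16 were tested and 1 rose. Bok, a relative of BAX and BAK, had signals as deposited of 188.0, 183.4, 136.5 and 144.7 in KO 4 to KO 7 and of 107.6, 62.3 and 50.1 in WT 5 to WT 7. All KO arrays were above all WT arrays, and the difference after normalization was 0.74 ± 0.14 (SE; limma adjusted p = 0.0300). It passed in 1 of the 7 fits without 1 array, the one without WT 5 (adjusted p = 0.0461). The median of this list was 0.13.

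Downstream of the mitochondrion, 12 of 14 apoptosome and caspase genes were tested and none passed, at a median of 0.07. The lowest p belonged to Cycs, the gene of cytochrome c, at 0.49 ± 0.14 (SE; limma adjusted p = 0.0727; 0.67 with adjusted p = 0.0194 for the mean of its probe sets), and to Casp9, the caspase that the apoptosome activates, at 0.27 (adjusted p = 0.160). Of the caspase inhibitors 5 of 6 were tested and 1 rose, at a median of -0.21. Birc2 was lower on every KO array after normalization without passing, at -0.43 ± 0.10 (SE; limma adjusted p = 0.0532). Birc5 encodes survivin, which is also a protein of cell division, and its difference was 0.69 ± 0.15 (SE; limma adjusted p = 0.0420). The signals before scaling, 600.0, 799.1, 490.4 and 554.3 in KO and 323.0, 255.8 and 245.8 in WT, did not overlap, and it passed in none of the 7 fits without 1 array (adjusted p 0.0620 to 0.120). In the death receptor list, through which BID is cleaved, 8 of 13 genes were tested and none passed, at a median of -0.05. Ripk3, a kinase of necroptosis, was at 0.28 ± 0.08 (SE; limma adjusted p = 0.0832), and the receptor gene Tnfrsf1a at -0.16 (adjusted p = 0.266).

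Upstream, 5 of 11 genes of p53 and its regulators were tested and none passed, at a median of -0.06. Trp53inp1 was at -0.33 and the checkpoint kinase gene Chek2 at 0.15 (limma adjusted p = 0.426 and 0.431), and leaving out 1 array moved them from -0.52 (without WT 5) to -0.20 (without KO 7) and from 0.04 (without WT 5) to 0.25 (without WT 7). The list of stress and FoxO regulators of BH3-only genes had 14 of 15 genes tested, 2 that fell and a median of -0.21. Trib3, a stress-induced pseudokinase that binds AKT, had deposited signals of 123.6, 140.9, 101.4 and 114.0 in KO and 228.5, 251.9 and 150.3 in WT. It was lower on every KO array, at -1.06 ± 0.12 (SE; limma adjusted p = 0.0111), and passed in all 7 fits without 1 array. Its brightest probe set has the suffix x_at, and with such probe sets left out the difference was -0.73 (adjusted p = 0.0832). Eif2ak3, the gene of PERK, a kinase that senses unfolded protein in the endoplasmic reticulum, was at -0.36 ± 0.08 (SE; limma adjusted p = 0.0424). It was at 0.00 as deposited (to 2 decimals) and passed in none of the 7 fits without 1 array (adjusted p 0.0835 to 0.0980). Of the FoxO factors, which can switch on Bcl2l11 and Bbc3, Foxo1 was at -0.37, Foxo3 at -0.29 and Foxo4 at 0.50. None passed (limma adjusted p = 0.163, 0.101 and 0.125), and each was without overlap, as were 24.2% of all genes tested. Foxo4 was dim, at deposited signals of 32.5 to 78.1 in KO and 17.2 to 25.4 in WT. Its WT signals were under the filter of 32.21, so its value is no firm sign of a second direction.

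Of the genes that set the stability of MCL1 8 of 9 were tested and none passed, at a median of 0.06. Cdc20, an activator of a ubiquitin ligase, and the ubiquitin ligase gene Huwe1 had the lowest p, at 0.21 and 0.20 (limma adjusted p = 0.153 and 0.219). Both depended on the probe set chosen, since the mean of the probe sets gave 0.43 for Cdc20, which passed (adjusted p = 0.0426), and -0.04 for Huwe1 (adjusted p = 0.858). Of the kinases, phosphatases and 14-3-3 proteins that control BAD 16 of 22 were tested and none passed, at a median of -0.01. Pim1, a kinase that phosphorylates BAD, was at -0.41 and the calcineurin gene Ppp3ca at -0.32 (limma adjusted p = 0.0945 and 0.109). Of the partners at the outer membrane 15 of 15 were tested and none passed, at a median of 0.10. Mtch2, the membrane receptor for truncated BID, was at 0.26 and the cristae gene Opa1 at 0.52 (limma adjusted p = 0.141 and 0.182). Opa1 was at 0.80 without WT 5, at 0.34 without WT 6 and at 0.28 for the mean of its probe sets.

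The cytokine and STAT5 list had 15 of 19 genes tested, 1 that fell and a median of -0.22. Kit, the receptor used in the sort of these cells, was at -0.43 ± 0.10 (SE; limma adjusted p = 0.0470). As deposited, the Kit signals of KO 4 to KO 7 (1659, 1650, 1395 and 1395) overlapped those of WT 5 to WT 7 (1933, 1459 and 1210), and the difference as deposited was 0.01. It passed in none of the 7 fits without 1 array (adjusted p 0.0562 to 0.114). Birc5, Eif2ak3 and Kit thus lost the test in every fit without 1 array, Bok in all but 1, and Trib3 in none. On the deposited scale, where the median gene was at 0.34, 1304 of all 8078 genes tested passed as higher. Of the pathway genes named by rule, Cycs, Casp9, Ripk3, Chek2, Huwe1, Mtch2 and Opa1 also passed as higher there (limma adjusted p 0.0120 to 0.0478). Genes not named by rule passed there too, such as 2 of the 16 tested in the list of BAD kinases, phosphatases and 14-3-3 proteins. Tnfrsf1a, Trp53inp1, Pim1 and Ppp3ca turned to values above 0 there (0.02 to 0.28) without passing.

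**Figure D5:**
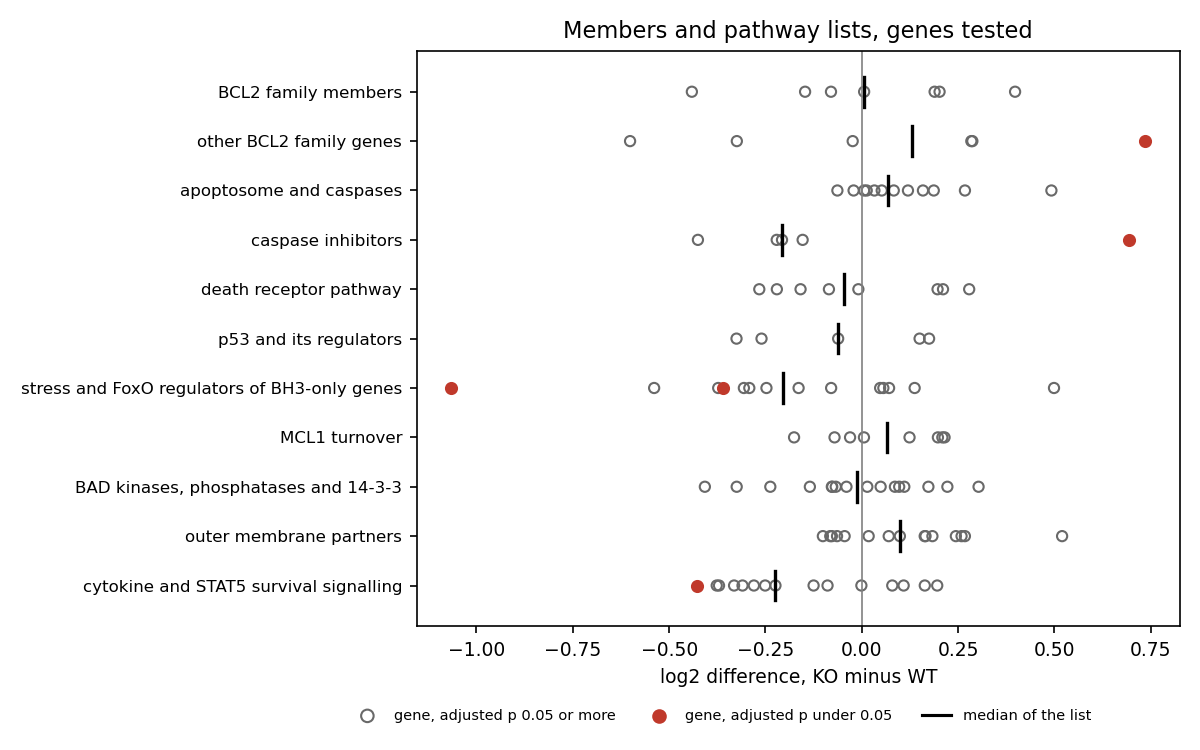
Difference KO minus WT of log2(quantile-normalized signal + 16) for the genes tested among the BCL2 family members and in each pathway list, with bars at the list medians. Filled points passed the test (limma adjusted p under 0.05): Bok, Birc5, Trib3, Eif2ak3 and Kit, and no member did.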

How the data were processed

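RNA of 7 samples was amplified from about 10 ng, labelled with biotin and hybridised, 1 array per sample, per the labels' protocols. The deposited values are linear signal intensities, 1 for every probe set on every array, and the submitters' processing notes name MAS5. The version and settings of MAS5 were not given in the sources used here. A larger array design is named in the labels than the 22690 probe sets belong to. Of the 22690, 64 were controls. By the platform annotation 20380 others had 1 symbol (20351 of them in the GRCm38.p6 gene table), 691 several and 1555 none, and only probe sets with 1 symbol were named. The number of arrays limits the precision.

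Intensities were quantile-normalized over the 22626 non-control probe sets and analysed as log2(signal + 16), a scale that understates changes of dim genes. For each gene the brightest probe set was taken, provided that its mean exceeded the 40th percentile (32.21 signal units), which left 8077 genes. The 95th percentile of 27 control probe sets for transcripts not added (189 readings) gave the background of 13.64. It was taken from deposited signals, and arrays above it were counted on deposited signals, where every KO array was brighter. Such counts therefore favour the KO group. The test between groups was limma (version 3.58.1, under R 4.3.3) without covariates (5 residual degrees of freedom) and Benjamini-Hochberg adjustment. Probe sets were tested in a second fit without a filter. The steps were tested on simulated data. The members and lists were chosen with earlier results of these data known. Named are the members, the genes of each list past the threshold or else the 2 of lowest p, Stk11, and the 3 genes most like each of the 2 members of lowest p. Foxo1, Foxo3, Foxo4, Hrk, Bnip3 and Birc2 were named after their values were seen. Alternatives covered scaling, pseudocount, filter, probe set choice, prior, weights, replicate block, Actb ratio and leaving out each array. The setting without x_at and s_at probe sets was chosen after seeing the data. Promoter windows are RefSeq's, searched on both strands with overlapping matches allowed.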

Additional observations from a re-analysis of the deposited data

Results flagged for a closer look

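Within the 4 KO arrays, the gap between 1 array and its nearest neighbour, as a share of the whole range, was tested for the 33 genes and probe sets made up of the members past the filter, Stk11 and the pathway genes named by rule. It passed Dixon's 95% critical value for 3 pathway genes and for no member, and the other genes of the lists were not tested. The share was 0.84 for Ripk3, where KO 4 stood above the other KO arrays. It was 0.854 for Opa1 and 0.838 for Kit, where KO 5 stood above the others. Chance alone flags about 1 in 20 such groups.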

How the results depend on the processing

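Bcl2l1 stayed lower and Bid higher in KO under all 13 alternative settings and all 7 fits without 1 array. Members called higher were 2 as deposited (Bid and Bad) and 1 (Bid) with median centring, a pseudocount of 64, the 60th percentile filter or the trended robust prior. The last 3 each also called 1 member lower (Bcl2l1). Of all genes, 198 were higher and 235 lower in the text. The counts were 1304 and 42 as deposited (96.9% of calls higher, against 45.7%), 380 higher with median centring (65.5%), 320 and 370 with a pseudocount of 64, 28 and 47 without a filter, 355 and 357 at the 60th percentile, and 464 and 455 with the trended robust prior. Leaving out 1 array gave 7 to 77 higher and 29 to 117 lower; each array, KO or WT, lowered both counts by over 1.5 times, most without KO 7 (7 and 29). With the Actb ratio as a covariate 0 genes were higher and 1 lower in limma (716 at an unadjusted p under 0.05). Kit was at 0.0124 as deposited. Of 769 values of single genes and probe sets under an alternative, 688 kept their call, 80 gained or lost one, Kit reversed, and 37 crossed 0 without a call. Beyond the array counts, scaling and filters named here, the cause was not tested.

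The replicate numbers 5 to 7 were in both groups. Same-numbered samples had deviations from their group means that correlated at 0.042, 0.098 and 0.058, none over 0.1, and 5 of 6 samples correlated best with their own number, a hint from the data only. With the replicate number as a block, 0 genes were higher and 1 lower in limma (1692 at an unadjusted p under 0.05), Bcl2l1 was at -0.40 and Bid at 0.34 (adjusted p = 0.196 and 0.210).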
